A study of Mus musculus with 8 samples.

Results

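The aminoacyl-tRNA synthetases are the 36 genes examined here, out of 22880 genes counted in the soleus of 8 mice. They comprise 20 genes for enzymes of the cytosol and 16 for enzymes of the mitochondrion. Members were taken by name, and a symbol ending in ars2 marked the mitochondrial form. The set was chosen with earlier results of these data known. The soleus, a postural muscle of the calf rich in slow fibres, was taken from 4 control mice (Dnm2 +/+) and from 4 mice that carry 1 wild-type and 1 mutant allele of Dnm2 (Dnm2 +/K562E). Dnm2 encodes dynamin 2, the GTPase that pinches vesicles off membranes, and the K562E substitution is known from families with a dominant form of Charcot-Marie-Tooth neuropathy. All 8 mice were independent males of the C57BL/6 strain (J substrain in the study's methods), 2 months old, and no treatment or Cre transgene is named for either group. The point mutation was placed in the germline, so that every cell type of the muscle carries it, and a single loxP site remained in a neighbouring intron of the mutant allele. Controls in the colony were age-matched animals or littermates.

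Each gene had a count of sequenced reads per mouse, and the total was between 33407430 and 48832814 counts. Values are given as normalized CPM, that is, counts per 1000000 reads of a library whose size was first adjusted by the TMM method, which sets libraries equal over genes that differ little. The TMM factors of controls (0.914 to 0.959) were all below those of Dnm2 +/K562E mice (1.037 to 1.103). Scaling by library size alone therefore moved the median log2 fold change of all 14001 tested genes from 0.01 to 0.22, and changes are read below against that median. Control mouse 4 stood apart in macrophage markers and in the fast fibre markers Myh4 and Pvalb. Myh4 was at 3134 normalized CPM in it, against 163 to 426 in the other controls, and Pvalb at 946.1 against 341.5 to 469.1. The other fast fibre markers did not follow. Control mouse 4 was the lowest control for Myh1, Myh2, Tnni2 and Tnnc2, and the highest for Atp2a1 (7887 against 7461 to 7803). For Tnnt3 and Mylpf it lay between other controls. The description of Dnm2 +/K562E mouse 1 names another residue than its title and genotype do. Dnm2 itself was at 66.3 ± 4.74 normalized CPM in controls and 73.4 ± 2.43 in Dnm2 +/K562E mice (SD, n = 4 each). This difference did not pass the test (adjusted p = 0.091, quasi-likelihood test of edgeR, Benjamini-Hochberg adjusted), and total counts cannot tell the alleles apart.

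An aminoacyl-tRNA synthetase attaches an amino acid to the tRNA that carries its anticodon, and so sets the accuracy and the supply of translation. The cytosol and the mitochondrion have separate sets of these enzymes, both encoded in the nucleus, except that the glycyl and lysyl enzymes serve both compartments from a single gene. The mitochondrial set charges the tRNAs with which the few proteins encoded in mitochondrial DNA, all of them parts of the respiratory chain, are made. Slow muscle is rich in mitochondria, and dominant mutations in several cytosolic synthetase genes are a known cause of Charcot-Marie-Tooth neuropathy in humans.

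In Dnm2 +/K562E soleus, most transcripts of mitochondrial synthetases were lower than in controls, whereas the cytosolic set split evenly. All 36 members passed the filter on low counts. Among the 16 mitochondrial members, 9 fell and 0 rose at an adjusted p under 0.05, against 21.7% of all tested genes that fell and 22.2% that rose. The members that fell were Aars2, Ears2, Fars2, Hars2, Sars2, Tars2, Vars2, Wars2 and Yars2. No mitochondrial member rose at an unadjusted p under 0.05 either (0 of 16), nor by the edgeR exact test (0) or DESeq2 (0). Of the 20 cytosolic members, 7 rose (Gars, Hars, Kars, Lars, Nars, Tars and Vars) and 7 fell (Aars, Eprs, Farsa, Farsb, Mars1, Wars and Yars), which is 35% in each direction. Cars, Dars, Iars, Qars, Rars and Sars did not pass.

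The median log2 fold change was -0.33 over the mitochondrial members and 0.02 over the cytosolic members, beside 0.01 over all tested genes. The largest changes were in the mitochondrial set. Aars2, Fars2, Sars2 and Yars2, 4 of the 36 members, also passed a second threshold of 0.58 on the log2 scale downwards, as did 7.85% of all tested genes. The count past that threshold upwards was 0, also at an unadjusted p under 0.05 and by DESeq2 and the exact test, beside 12.9% of all tested genes. The values of the genotypes did not overlap for 21 of the members, 7 of them higher and 14 lower in Dnm2 +/K562E mice. Over all tested genes, 20.6% were higher without overlap and 20.5% lower.

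How many cytosolic members fell depended on the scaling. With library size alone, 11 cytosolic members rose and 0 fell, although 2 had an unadjusted p under 0.05 downwards, and 2 mitochondrial members (Cars2 and Iars2) rose and 4 fell (Aars2, Fars2, Sars2 and Yars2). Under that scaling 40.1% of all tested genes rose and 10.7% fell. Cars, Dars, Iars, Mars2, Pars2 and Rars2, all near 0 and not passing, changed sign with it. Relative to the median of all genes, 13 of 16 mitochondrial members lay below and 3 above it, and 10 of 20 cytosolic members on either side. These counts were the same under both scalings. A change of scaling shifts all genes by nearly the same amount, so this agreement, here and in later paragraphs, was fixed in advance. The median of the mitochondrial members lay at -0.34 against that of all genes under either scaling. The cytosolic median lay at 0.01.

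**Figure D1:**
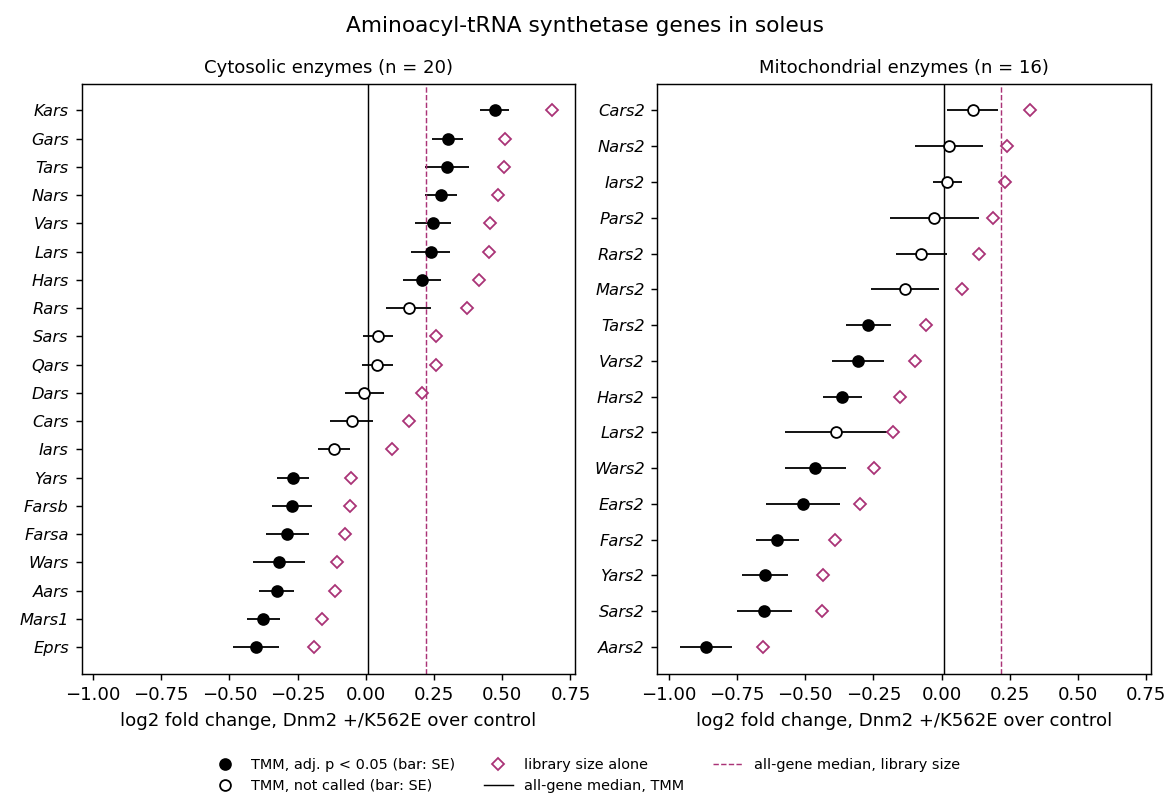
Log2 fold change of each of the 36 synthetase genes, Dnm2 +/K562E over control (4 mice each), for the 20 cytosolic genes (left) and the 16 mitochondrial genes (right). Circles are the TMM-scaled values with SE, filled where the adjusted p is under 0.05; diamonds are the values with library size alone, and vertical lines are the medians of all 14001 tested genes (0.01 and 0.22). Aars2 is lowest at -0.86 and Kars highest at 0.47, and the diamonds are shifted to the right as a whole.

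Without control mouse 4, 5 cytosolic members rose and 7 fell, and 9 mitochondrial members fell. Without Dnm2 +/K562E mouse 1, 5 cytosolic members rose and 7 fell, and 8 mitochondrial members fell. The soleus samples also differed in cell type markers. Each of the 7 slow fibre markers had a lower mean in Dnm2 +/K562E mice and 6 fell, with a summed level of 19560 to 23040 normalized CPM in controls and 11340 to 14340 in mutants. Of 9 fast fibre markers 7 fell (sum 42220 to 44210 against 25610 to 30570). All 7 macrophage markers rose (sum 70.4 to 129 against 151 to 252), as did 6 of 7 fibroblast markers (2377 to 3691 against 5230 to 6865). All 5 endothelial markers fell (862 to 900.2 against 616 to 705), but only 2 of them with library size alone. Of 4 satellite cell markers 3 fell under either scaling (19.5 to 25.1 against 7.51 to 11.1). The sums of 5 Schwann cell markers (181 to 200 against 153 to 188), 4 adipocyte markers (29.3 to 164 against 50.04 to 96.3) and 4 markers of dividing cells (5.09 to 12.2 against 11.2 to 20.8) overlapped, with at most 1 marker called in each list. None of these markers was at 0 in any mouse, and the part of cell composition in the synthetase values was not tested. In whole muscle, fewer cells of a type and less RNA per cell cannot be told apart.

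The promoters of the members were searched for motifs of factors that are known to act on such genes. Of the members, 13 cytosolic and 14 mitochondrial genes had a promoter in the RefSeq table (GRCm38.p6, the build of the counts), taken as 250 bases before to 50 bases after the start of the gene. Cars, Hars, Lars, Nars, Rars, Vars, Wars, Hars2 and Pars2 had none there and were not searched. Hars, Lars, Nars and Vars are among the cytosolic members that rose, so motifs cannot be set against direction for them. The C/EBP-ATF element TGATGNAA, through which ATF4 is known to act on genes of amino acid supply, was found on either strand in 5 of the 13 cytosolic promoters and in 0 of the 14 mitochondrial ones. It was present in 4.51% of the 27025 genes in the table. A site of each gene is shown because these genes moved in different directions: Gars and Tars rose, Aars and Yars fell, and Iars did not pass. Each is written 5′ to 3′ on the strand of the gene, with the match in capitals.
Gars, chr6:55037960-55037989, plus strand: tggctgcgctaTTTCATCAtgcaccgggcg
Tars, chr15:11399655-11399684, minus strand: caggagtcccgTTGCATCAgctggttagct
Aars, chr8:111033840-111033869, plus strand: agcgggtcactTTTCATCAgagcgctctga
Yars, chr4:129189895-129189924, plus strand: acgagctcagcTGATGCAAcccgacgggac
Iars, chr13:49682126-49682155, plus strand: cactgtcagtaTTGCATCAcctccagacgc

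A match began 30 bases before the start of Gars and 15 bases before that of Tars, and 3, 7 and 9 bases after the starts of Yars, Iars and Aars. These starts are those of the RefSeq table, which can differ from the GENCODE gene bounds given with the values. The RefSeq start of Aars lies inside its GENCODE gene. The NRF1 core GCGCATGC, a motif of a factor known for nuclear genes of mitochondria, was found in 3 of the 14 mitochondrial promoters and 0 of the 13 cytosolic ones, against 3.05% of all genes in the table. Vars2, which holds it at 2 sites, and Wars2 fell, whereas Rars2 did not pass.
Rars2, chr4:34614895-34614924, plus strand: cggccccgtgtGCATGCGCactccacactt
Vars2, chr17:35667620-35667649, minus strand: gagtcttttacGCATGCGCctgcgtgtccc
Wars2, chr3:99141015-99141044, plus strand: ccagaggacagGCGCATGCgtagtaagcac

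The E-box CACGTG was present in 4 cytosolic promoters (Aars, Farsb, Iars and Tars) and 1 mitochondrial promoter (Ears2), against 8.09% of all genes. The ETS core CCGGAAG was present in 5 cytosolic promoters (Farsa, Gars, Kars, Mars1 and Sars) and 4 mitochondrial ones (Cars2, Mars2, Rars2 and Sars2), against 9.93%. Among the members searched, the C/EBP-ATF element, the E-box and the ETS core each occurred in some that rose and in some that fell. These matches of letters say nothing about whether a factor was bound.

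Among the cytosolic enzymes, Kars, the lysyl enzyme, changed most clearly. It was at 93.4, 90.3, 91.2 and 94.4 normalized CPM in controls 1 to 4 and at 132, 121, 133 and 126 in Dnm2 +/K562E mice 1 to 4. Every mutant mouse exceeded every control. The log2 fold change was 0.47 ± 0.05 (SE, adjusted p = 5.68e-05 by the quasi-likelihood test of edgeR, Benjamini-Hochberg adjusted), an increase of 38.7%. Gars, the glycyl enzyme, had 51.9, 56.4, 51.9 and 53.8 normalized CPM in controls and 65.2, 64.7, 64.5 and 69.2 in mutants, again without overlap. It rose by 0.30 ± 0.06 on the log2 scale (adjusted p = 0.00158, same edgeR test). Kars and Gars are the members whose products serve both compartments, and both rose. Kars (ENSMUSG00000031948) lies on the minus strand at chr8:111993443-112011323 and Gars (ENSMUSG00000029777) on the plus strand at chr6:55038007-55079500 (GRCm38).

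Nars, which charges asparagine tRNA (ENSMUSG00000024587, chr18:64499647-64516652, minus strand), was at 98.1, 95.0, 101 and 95.0 normalized CPM in controls and at 122, 110.3, 114 and 124 in mutants. All 4 mutants were above all controls, and the log2 fold change was 0.27 ± 0.06 (adjusted p = 0.00318, edgeR quasi-likelihood test). Tars (threonine, 0.30), Vars (valine, 0.25), Lars (leucine, 0.24) and Hars (histidine, 0.21) rose as well. The calls of Lars and Hars were close to the threshold. Lars had an adjusted p between 0.0504 and 0.0679 when control mouse 2 or 4 or Dnm2 +/K562E mouse 1 or 4 was left out. For Hars it lay between 0.0537 and 0.1045 when control mouse 2, 3 or 4 or Dnm2 +/K562E mouse 1, 3 or 4 was left out (edgeR quasi-likelihood test).

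The cytosolic genes that fell included the methionyl enzyme Mars1, which also charges the initiator tRNA (ENSMUSG00000040354, chr10:127296221-127311786, minus strand). Mars1 was at 47.4, 47.1, 51.1 and 46.5 normalized CPM in controls and at 38.4, 38.4, 35.7 and 35.8 in mutants. There was no overlap, and it fell by 0.38 on the log2 scale (SE 0.06, adjusted p = 0.000581, edgeR quasi-likelihood test). Its exons share 68 bases with Ddit3 on the opposite strand, and whether reads were assigned by strand is not given in the sources used here. Aars, the alanyl enzyme (ENSMUSG00000031960, chr8:111033144-111057664, plus strand), was at 122, 113, 118 and 106 normalized CPM in controls and at 95.6, 89.7, 85.8 and 95.2 in mutants. The lowest control stayed above the highest mutant, and the log2 fold change was -0.33 ± 0.06 (adjusted p = 0.00203, same test). Of the 31-base stretches in Aars transcripts, 14.4% also occur in transcripts of other genes.

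Eprs encodes a single protein that charges both glutamate and proline tRNAs (ENSMUSG00000026615, chr1:185363044-185428360, plus strand). It stood at 276, 239, 288 and 229 normalized CPM in controls and at 209, 178, 190.0 and 205 in mutants. Controls were more spread than mutants, but did not overlap with them, and the log2 fold change was -0.40 ± 0.09 (adjusted p = 0.00311, edgeR quasi-likelihood test). Both subunits of the cytosolic phenylalanyl enzyme fell by similar amounts, with log2 fold changes of -0.29 for Farsa and -0.27 for Farsb. Yars, the tyrosyl enzyme, was at -0.27. Wars, the tryptophanyl enzyme, had a log2 fold change of -0.32 with overlapping genotypes, since control mouse 1 (42.7 normalized CPM) lay below Dnm2 +/K562E mouse 1 (44.8). Its adjusted p rose to between 0.0555 and 0.0574 when control mouse 2 or Dnm2 +/K562E mouse 2 or 3 was left out. With library size alone, none of these 7 decreases passed, and their log2 fold changes ranged from -0.19 (Eprs) to -0.06 (Yars), below the all-gene median of 0.22.

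Iars, the isoleucyl enzyme, was lower in every mutant (63.7 to 70.0 normalized CPM) than in every control (70.7 to 76.4), but its log2 fold change of -0.11 did not pass (adjusted p = 0.137, edgeR quasi-likelihood test). The other cytosolic members that did not pass had log2 fold changes between -0.05 (Cars) and 0.16 (Rars). For each of these genes the mice of the genotypes overlapped.

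**Figure D2:**
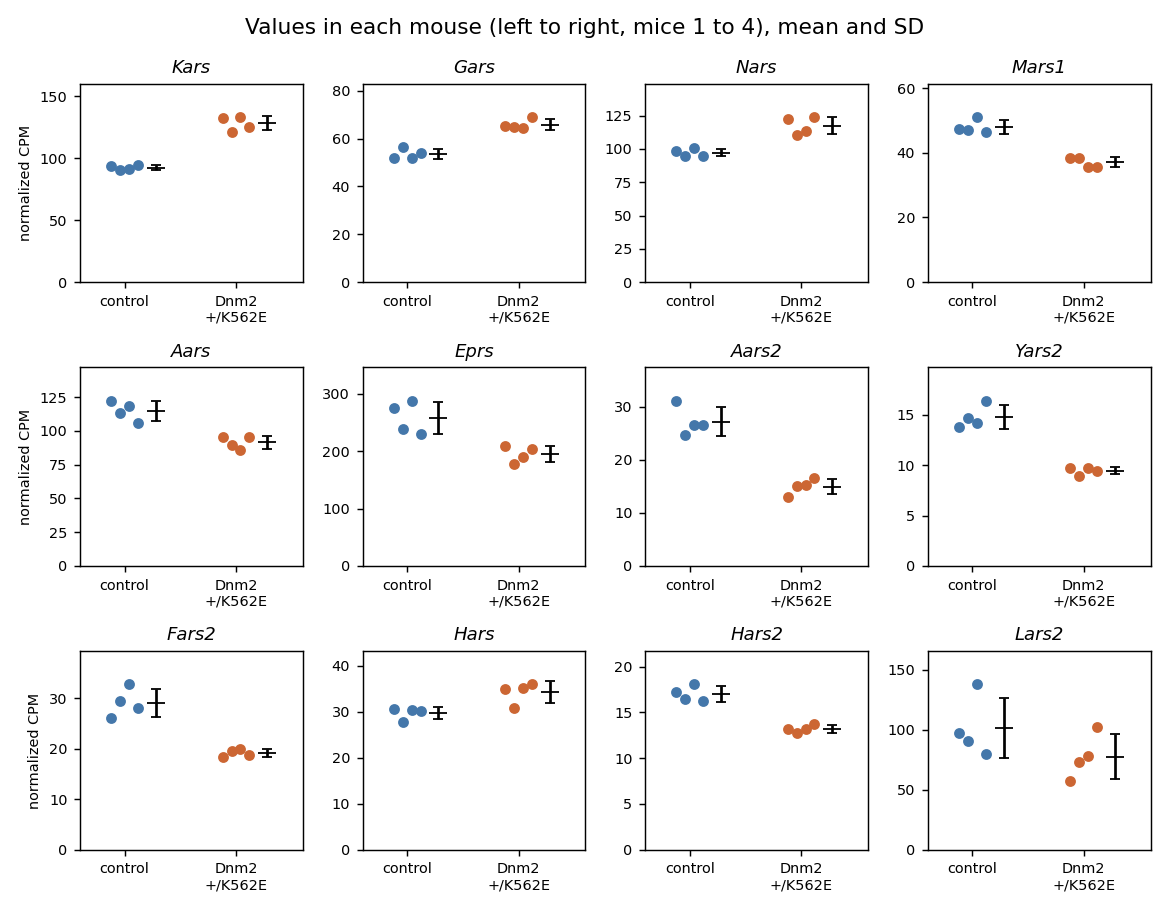
Normalized CPM in each mouse for 12 synthetase genes, with controls in blue, Dnm2 +/K562E mice in orange (mice 1 to 4 from left to right) and mean and SD in black beside them. Kars, Gars, Nars and Hars are higher in all mutants than in all controls, Mars1, Aars, Eprs, Aars2, Yars2, Fars2 and Hars2 are lower, and Lars2 overlaps.

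Of the mitochondrial enzymes, Aars2, the alanyl form, changed most (ENSMUSG00000023938, chr17:45506841-45520843, plus strand). It was at 31.2, 24.7, 26.5 and 26.5 normalized CPM in controls and at 13.04, 14.99, 15.3 and 16.5 in mutants. The groups were far apart, and transcript levels fell by 45.04%, a log2 fold change of -0.86 ± 0.10 (adjusted p = 4.45e-05, quasi-likelihood test of edgeR, Benjamini-Hochberg adjusted). No 31-base stretch of its transcripts occurs in another gene. With library size alone the log2 fold change was -0.65 and still passed both thresholds, which was true of no other member that fell.

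Yars2, the mitochondrial tyrosyl enzyme (ENSMUSG00000022792, chr16:16302965-16309640, plus strand), was at 13.8, 14.6, 14.2 and 16.4 normalized CPM in controls and at 9.70, 8.95, 9.68 and 9.38 in mutants. Mutants lay close together and below every control, and the log2 fold change was -0.65 ± 0.08 (adjusted p = 0.000143, edgeR quasi-likelihood test). Fars2 encodes the phenylalanyl enzyme, a single chain in mitochondria (ENSMUSG00000021420, chr13:36117412-36726280, plus strand). It was at 26.2, 29.4, 32.8 and 28.1 normalized CPM in controls and at 18.4, 19.5, 20.01 and 18.8 in mutants, likewise without overlap (log2 fold change -0.60 ± 0.08, adjusted p = 0.000144, same test). Exons of Fars2 share 501 bases with Nrn1 and 115 bases with Lyrm4 on the opposite strand, 8.72% and 2.00% of its exon bases.

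Sars2, the mitochondrial seryl enzyme, fell from 12.9 ± 0.671 to 8.24 ± 0.916 normalized CPM (SD, n = 4 each), a log2 fold change of -0.65 ± 0.10. Ears2, which charges both glutamate and glutamine tRNAs in mitochondria, had a log2 fold change of -0.51, Wars2 (tryptophan) of -0.46 and Hars2 (histidine) of -0.36, all without overlap. Vars2 (valine, -0.31) and Tars2 (threonine, -0.27) passed with overlapping genotypes. Both lost the call when Dnm2 +/K562E mouse 2 or 3 was left out, Vars2 also without Dnm2 +/K562E mouse 1 and Tars2 also without control mouse 2, with adjusted p-values between 0.0514 and 0.0671 (edgeR quasi-likelihood test).

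Lars2, the mitochondrial leucyl enzyme, was the most variable member. Its values were 97.5, 90.8, 138 and 79.9 normalized CPM in controls and 57.2, 73.5, 78.1 and 102 in mutants. Dnm2 +/K562E mouse 4 lay above 3 of the controls, and the log2 fold change of -0.39 ± 0.19 did not pass (adjusted p = 0.118, edgeR quasi-likelihood test). Without that mouse it was -0.545 and passed (adjusted p = 0.035). Cars2 (0.11), Nars2 (0.03), Iars2 (0.02), Pars2 (-0.03), Rars2 (-0.07) and Mars2 (-0.13) did not pass either, and their genotypes overlapped. Iars2 shares 22.9% of its exon bases with Rab3gap2 on the opposite strand, so that reads of both could be counted together. The SE was 0.16 for Pars2, with 122 to 231 reads per mouse, and 0.19 for Lars2, with 2107 to 6153 reads.

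Summed over the 20 cytosolic members, the level per kb of transcript was 453, 441, 468 and 438 normalized CPM in controls and 475, 432, 449 and 468 in mutants. The genotypes overlapped. The sum over the 16 mitochondrial members was 122, 122, 132 and 116 in controls and 92.2, 95.1, 98.4 and 105 in mutants, lower in every mutant. Within a mouse, the ratio of these sums does not depend on how libraries are scaled. It was 3.70, 3.61, 3.56 and 3.77 in controls and 5.15, 4.55, 4.56 and 4.47 in mutants, so that every mutant exceeded every control, and Dnm2 +/K562E mouse 1 was highest. Without the variable Lars2, the ratio was 4.64 ± 0.169 in controls and 5.87 ± 0.210 in mutants (SD, n = 4 each). These sums are descriptions over chosen members and were not tested.

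**Figure D3:**
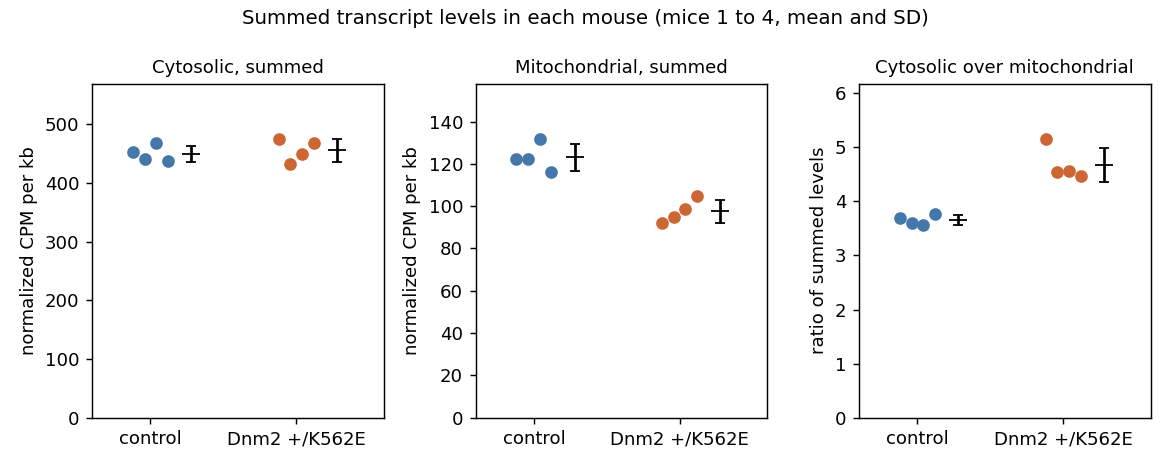
Summed normalized CPM per kb of the 20 cytosolic members (left), of the 16 mitochondrial members (middle) and their ratio (right) in each mouse, with mean and SD. The cytosolic sums overlap between the genotypes, the mitochondrial sums of mutants (92.2 to 105) lie below those of controls (116 to 132), and the ratio rises from 3.56 to 3.77 in controls to 4.47 to 5.15 in mutants.

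The cytosolic and mitochondrial enzymes for 1 amino acid could be set side by side in 17 pairs, covering 16 amino acids, since Eprs and Fars2 each enter 2 pairs. In 13 of the 17 pairs the cytosolic gene had the higher log2 fold change, and the median difference was 0.32. The ratio of cytosolic to mitochondrial transcript, per kb, was higher in all mutants than in all controls in 9 pairs, lower in 1 pair (Iars over Iars2) and overlapped in 7. In 3 pairs both genes passed in opposite directions: histidine, threonine and valine. This count depended on single mice. It was 0 without Dnm2 +/K562E mouse 3, 1 without Dnm2 +/K562E mouse 1 (threonine), Dnm2 +/K562E mouse 2 (histidine) or control mouse 2 (valine), 2 without Dnm2 +/K562E mouse 4 or control mouse 3 or 4 (threonine and valine), and 3 without control mouse 1. With library size alone it was 1, the serine pair, since Hars2, Tars2 and Vars2 no longer passed.

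Hars was at 30.6, 27.7, 30.3 and 30.3 normalized CPM in controls and at 35.1, 30.8, 35.2 and 35.97 in mutants. Hars2 was at 17.2, 16.5, 18.1 and 16.2 in controls and at 13.2, 12.7, 13.2 and 13.8 in mutants. Hars (ENSMUSG00000001380, chr18:36766528-36783205, minus strand) and Hars2 (ENSMUSG00000019143, chr18:36783008-36792562, plus strand) lie head to head, and exons at their starts share 195 bases. Their ratio per kb moved from 2.94 ± 0.151 in controls to 4.35 ± 0.187 in mutants (SD, n = 4 each) without overlap.

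Tars (ENSMUSG00000022241, chr15:11382301-11399665, minus strand) was at 43.2, 38.8, 39.7 and 42.3 normalized CPM in controls and at 54.0, 44.0, 48.5 and 55.1 in mutants. Tars2 (ENSMUSG00000028107, chr3:95739976-95760206, minus strand) was at 29.1, 30.2, 26.3 and 27.9 in controls and at 26.4, 21.2, 22.7 and 23.9 in mutants. Tars did not overlap, whereas Tars2 of Dnm2 +/K562E mouse 1 lay above control mouse 3. The ratio of the pair was 0.868 ± 0.067 in controls and 1.28 ± 0.071 in mutants.

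Vars (ENSMUSG00000007029, chr17:35000987-35016322, plus strand) was at 28.4, 31.4, 33.2 and 32.6 normalized CPM in controls and at 36.8, 36.4, 37.6 and 38.2 in mutants. Vars2 (ENSMUSG00000038838, chr17:35655634-35667592, minus strand) was at 17.6, 15.6, 14.1 and 15.8 in controls and at 12.7, 11.5, 12.4 and 14.3 in mutants. Again the cytosolic gene separated the genotypes, and the mitochondrial gene overlapped in 1 mouse of each group. The ratio was 2.15 ± 0.319 in controls and 3.14 ± 0.224 in mutants, without overlap. For serine, Sars did not pass while Sars2 fell, and the ratio went from 3.33 ± 0.208 to 5.43 ± 0.5804.

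Both genes fell for alanine, glutamate, phenylalanine, tryptophan and tyrosine. For alanine the mitochondrial gene was lowered more, so that Aars over Aars2 rose from 2.465 ± 0.189 to 3.59 ± 0.461, whereas for glutamate (Eprs over Ears2) and tryptophan (Wars over Wars2) the ratios of the genotypes overlapped.

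**Figure D4:**
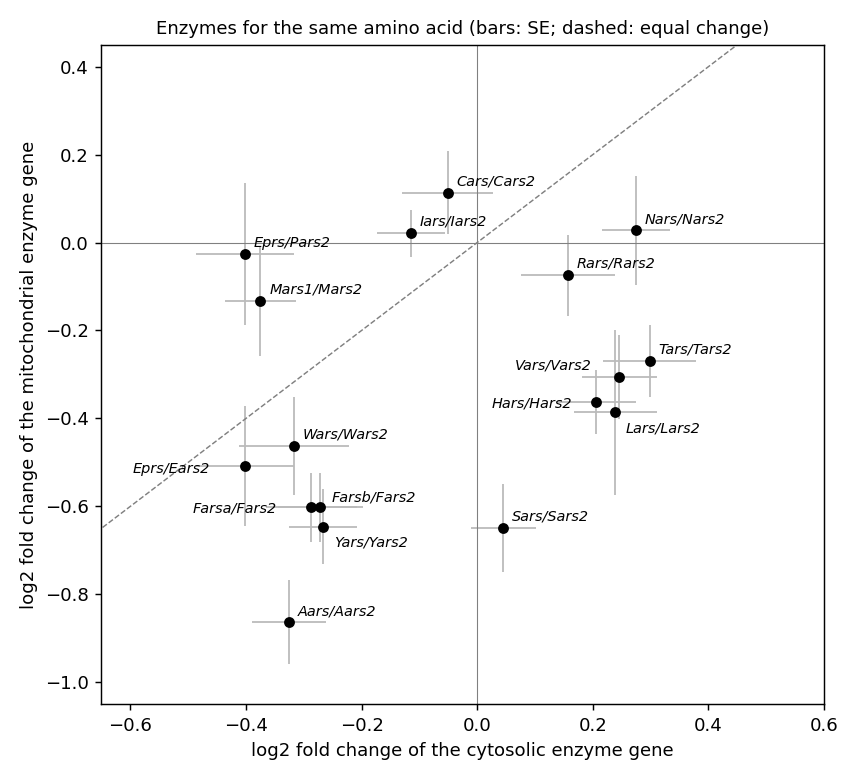
Log2 fold change (Dnm2 +/K562E over control) of the cytosolic gene, x axis, and of the mitochondrial gene, y axis, for 17 pairs of synthetases for the same amino acid, with SE bars. Points below the dashed line of equal change (13 of 17) are pairs in which the mitochondrial gene has the lower value, and Hars/Hars2, Tars/Tars2 and Vars/Vars2 lie in the quadrant of a higher cytosolic and a lower mitochondrial gene, with both genes called in 0 to 3 of these pairs when 1 mouse was left out.

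Levels of different genes were compared per kb of their principal transcript. In controls the order was led by Eprs (52.6 ± 5.81 normalized CPM per kb) and Kars (46.0 ± 0.939), followed by Dars (35.5) and Nars (35.4). Eprs and Kars overlapped between mice. In mutants Kars led at 63.8 ± 2.80, above all mice of the next gene, Nars (42.9), and Eprs came after Nars at 39.8 ± 2.83. Of the 35 neighbours in the control order, 25 overlapped between mice and thus cannot be ranked, and in the mutant order 24 did. The control median was 21.2 normalized CPM per kb for cytosolic members and 6.74 for mitochondrial members. Lars2 (26.1 ± 6.49) was the highest mitochondrial member and Vars (7.59 ± 0.508) the lowest cytosolic one. The lowest level overall was that of Mars2 (1.11 ± 0.164), whose annotated transcript, a single exon of 11294 bases around a coding length of 1758 bases, makes a value per kb small.

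**Figure D5:**
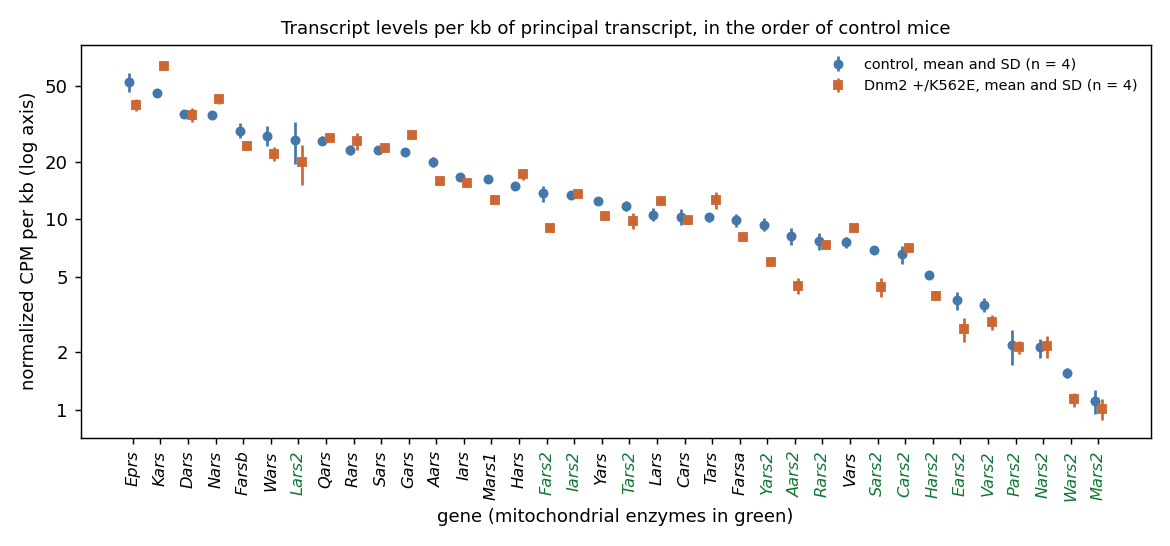
Mean normalized CPM per kb of principal transcript (log axis) with SD for the 36 members in the order of the control mice, controls in blue and Dnm2 +/K562E mice in orange, with mitochondrial members named in green. Mitochondrial members fill most of the lower end, Kars rises from 46.0 to 63.8 and passes Eprs, and Aars2 drops from 8.13 to 4.47.

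Synthetases fall into classes I and II, which differ in the fold of the catalytic domain. Eprs, whose protein charges both glutamate and proline tRNAs, was counted in class I only. Of 19 class I members 2 rose and 8 fell (10.5% and 42.1%), and of 17 class II members 5 rose and 8 fell (29.4% and 47.1%), beside 22.2% and 21.7% of all tested genes. The balance turned with library size alone, with 6 class I members higher and 1 lower and 7 class II members higher and 3 lower, beside 40.1% and 10.7% of all genes. Against the median of all genes, 13 of 19 class I and 10 of 17 class II members lay below it under either scaling. Within the cytosolic set, 5 of 10 class II genes rose and 3 fell, while 2 of 10 class I genes rose and 4 fell (7 and 0, and 4 and 0, with library size alone). The difference between classes was not tested. In the cytosol 8 synthetase genes encode enzymes of the multisynthetase complex, of which 2 rose (Kars and Lars) and 2 fell (Eprs and Mars1), with a median log2 fold change of 0.02. The 25% in either direction is near the share over all genes, and Lars lost its call without control mouse 2 or 4 or Dnm2 +/K562E mouse 1 or 4. Of the 12 genes outside the complex, 5 rose and 5 fell (median -0.003). Scaled by library size alone, 5 genes of the complex rose and 0 fell (median 0.23), and 6 of the 12 others rose and 0 fell. The scaffold proteins that hold the complex together did not move as a group. Aimp2, which binds the lysyl enzyme, fell from 37.6 ± 3.25 to 29.1 ± 1.64 normalized CPM (log2 fold change -0.37, adjusted p = 0.00286, edgeR quasi-likelihood test), whereas Aimp1 (-0.08) and Eef1e1 (0.04) did not pass. Aimp2 did not pass either with library size alone (-0.16, adjusted p = 0.156, same test).

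Mutations in 6 of the cytosolic genes are known to cause dominant forms of Charcot-Marie-Tooth neuropathy in humans. This group was formed after the values were seen and was not tested. Gars and Hars rose, and Aars, Mars1, Wars and Yars fell, so that the 6 did not share a direction (median log2 fold change -0.29). Of all tested genes 22.2% rose and 21.7% fell. With 1 mouse left out, Hars was called in 2 of 8 fits and Wars in 5. With library size alone 2 of the 6 genes rose and 0 fell, and 4 did not pass. Under that scaling 40.1% of all genes rose and 10.7% fell.

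Genes that work beside the synthetases were described in the same way, with lists made up from textbook knowledge. Over 105 tested genes of these lists, 18 rose and 30 fell (17.1% and 28.6%), beside 22.2% and 21.7% of all tested genes. The balance turned with library size alone, to 40 higher and 13 lower, beside 40.1% and 10.7% of all genes. Against the median of all genes, 44 lay above it and 61 below it under either scaling. The glutamine amidotransferase of mitochondria turns the glutamate that Ears2 places on glutamine tRNA into glutamine, and its 3 subunits all fell, with log2 fold changes of -0.60 for Qrsl1, -0.55 for Gatc and -0.36 for Gatb (adjusted p = 0.000414, 9.81e-05 and 0.00635, edgeR quasi-likelihood test). Gatb did not pass with library size alone (-0.16). Of 10 mitochondrial translation factors 7 fell and 0 rose (median -0.34), led by Guf1 (-0.49), Gfm2 (-0.45) and Mtif2 (-0.49). No translation factor rose at an unadjusted p under 0.05 (0), by the exact test (0) or by DESeq2 (0) either, but with library size alone Mtif3 rose (0.32, adjusted p = 0.0294, edgeR quasi-likelihood test) and 4 fell, Guf1, Gfm2 and Mtif2 among them. Under either scaling 9 of the 10 lay below the median of all genes. Among 15 tested genes for processing and modification of mitochondrial tRNA, 6 fell and 1 rose (40% and 6.67%). By library size alone 3 fell and 3 rose, and 10 of the 15 lay below the median of all genes under either scaling. Osgepl1, which modifies an adenosine next to the anticodon, was lowest (-0.79), followed in p by Hsd17b10 (-0.44), a subunit of mitochondrial RNase P, and Trmu (-0.72), a thiouridylase, and these 3 passed under both scalings. The pseudouridine synthase gene Pus1 rose (0.32), but was called in only 3 of the 8 fits with 1 mouse left out (adjusted p between 0.0667 and 0.106 without control mouse 1, 2 or 4 or Dnm2 +/K562E mouse 1 or 4, edgeR quasi-likelihood test).

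In the cytosol, the elongation factor gene Eef1a1, which delivers charged tRNA to the ribosome, rose (0.54) and Eif5a fell (-0.20), and the other 5 of 7 elongation genes did not pass. The call of Eif5a was lost without control mouse 2 or 3 or Dnm2 +/K562E mouse 2, and with library size alone its value was 0.02 and 4 of the 7 genes rose. Among genes for editing and quality control of charged tRNA, Aarsd1, which clears mischarged alanine tRNA, fell (-0.68).

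ATF4 is the transcription factor of the amino acid response, and several cytosolic synthetases are among its known targets. Of 20 tested genes of that pathway other than the synthetases, 8 rose and 2 fell (40% and 10%, median 0.34). Of all tested genes 22.2% rose and 21.7% fell. With library size alone 12 of the 20 rose and 1 fell, beside 40.1% and 10.7% of all genes. With 1 mouse left out at a time, 6 to 9 rose and 1 to 3 fell. Of the 20 genes, 13 lay above the median of all genes under either scaling. Mthfd2, of mitochondrial one-carbon metabolism, rose most (1.88), followed in p by Aldh18a1 (1.13) of proline synthesis and Asns (1.10), the asparagine synthetase that supplies the substrate of Nars. Ddit3 fell (-0.77), as did Shmt2 (-0.25), the latter called in 3 of the 8 fits with 1 mouse left out (lost without control mouse 2 or 3 or Dnm2 +/K562E mouse 1, 3 or 4) and not with library size alone (-0.04). Atf4 itself, named after its value was seen, did not pass (-0.05, adjusted p = 0.464, edgeR quasi-likelihood test), but rose with library size alone (0.16, adjusted p = 0.0387, same test).

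Of 12 genes for eIF2 kinases, phosphatases and the eIF2B exchange factor, the kinase genes Eif2ak3 (0.37) and Eif2ak2 (0.35) rose and the subunit genes Eif2b1 (-0.36), Eif2b2 (-0.21) and Eif2b4 (-0.21) fell. These shares (16.7% and 25%) are near those of all genes, and with library size alone 6 rose and 0 fell, with Eif2b1 at -0.15, Eif2b2 at -0.0017 and Eif2b4 at 0.006. With 1 mouse left out, Eif2ak2 was called in 2 of 8 fits (lost without control mouse 2 or 3 or any Dnm2 +/K562E mouse) and Eif2ak3 in 3 (lost without control mouse 1 or 3 or Dnm2 +/K562E mouse 1, 2 or 3). Eif2b4 lost its call without control mouse 3 or Dnm2 +/K562E mouse 2 or 3, and Eif2b2 without control mouse 2. Of 14 amino acid transporter genes, 4 rose and 1 fell (28.6% and 7.14%), beside 22.2% and 21.7% of all tested genes. With library size alone 7 of the 14 rose and 0 fell, beside 40.1% and 10.7% of all genes. Whichever control mouse was left out, 2 to 3 transporter genes fell. Slc7a5 (0.72), which carries leucine and other large neutral amino acids, Slc36a1 (0.50) of the lysosome and Slc7a1 (0.78), which carries lysine and arginine, rose, and Slc38a1 (-0.74), a glutamine carrier, fell, though not with library size alone (-0.53, adjusted p = 0.0572, edgeR quasi-likelihood test). Of 15 genes through which amino acids are sensed by mTORC1, 1 rose and 5 fell (6.67% and 33.3%). Of all tested genes 22.2% rose and 21.7% fell. The genes of this list that fell were led by Flcn (-0.98), Rragb (-1.31) and Rptor (-0.30), while Castor2, of the CASTOR arginine sensor family, rose (0.38). The balance of the list also turned with library size alone, to 5 higher and 2 lower, beside 40.1% and 10.7% of all genes. Rptor then did not pass (-0.09, adjusted p = 0.268, edgeR quasi-likelihood test). Under either scaling 10 of the 15 genes lay below the median of all genes.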

How the data were processed

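RNA from the soleus of 4 control and 4 Dnm2 +/K562E mice was sequenced, and the authors deposited unnormalized counts per Ensembl gene and mouse. They trimmed reads with Trimmomatic 0.33, aligned them to GRCm38.p5 with STAR 2.5.1b and counted them with featureCounts, with multi-mapping reads at their primary alignment only and reads over several genes counted for each, so that overlapping genes share reads. Strand use is not given in the sources used here. The labels name a stranded total RNA kit and the methods a poly A kit.

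Of 22880 gene IDs, 22647 were matched to GENCODE M21 (same build), which gave symbols and lengths. The principal coding transcript served for values per kb. Counts were filtered with filterByExpr (minimum count 10, minimum total 15), scaled by TMM and fitted with edgeR 4.0.16 (R 4.3.3), using the quasi-likelihood test and Benjamini-Hochberg adjustment over 14001 genes. Genes were called at an adjusted p under 0.05. SEs are those implied by the F statistic. Tested on simulated counts of the same design (14027 genes), the fit called all 200 genes changed by 1.5 on the log2 scale in the right direction, and 7 unchanged genes. The members changed by less (Aars2 most, at -0.86), so the simulation gives no measure of calls at their sizes. Counts of mice of 1 genotype differed by more than sampling noise (chi-square per degree of freedom 13.0 or more), so all 8 were replicates. They came from separate animals. Deviations of same-numbered mice were at most weakly correlated (-0.213 to 0.00949 by title number, -0.167 to 0.178 by description number). The numbers were therefore not used to pair mice in the main fit. With 4 mice per group, these correlations cannot exclude a litter or batch shared by same-numbered mice.

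The members and lists were chosen with earlier results of these data known. All members may be named. Of a companion list the 3 called genes with the smallest p in each direction are named, of a list of 6 or fewer all. Values per mouse are given for the 3 cytosolic and 3 mitochondrial members with the smallest p in each direction, and for pairs that passed in opposite directions. Lars2 and Sars2 were added after their values were seen. Motifs were searched in RefSeq promoters matched by Ensembl gene ID, or by symbol where that gave no promoter. Alternatives were the edgeR exact test, DESeq2 1.42.0, scaling by median ratios or by library size alone, mitochondrially encoded genes left out, other filters, replicate blocks and each mouse left out. Protein sequences were not used here.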

Additional observations from a re-analysis of the deposited data

Results flagged for a closer look

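A single mouse far from the other 3 of its genotype (gap over range above Dixon's critical value for 4 samples) was found in 6 of 92 groups of 4 examined, where chance gives about 1 in 20. Gars of Dnm2 +/K562E mouse 4 (69.2 normalized CPM) was above the other mutants (64.5 to 65.2). Hars of control mouse 2 (27.7) was below the other controls (30.3 to 30.6). Iars of Dnm2 +/K562E mouse 2 (63.7) was below the other mutants (69.8 to 70.0). Sars of control mouse 3 (87.0) was above the other controls (80.2 to 80.7). Dnm2 of control mouse 3 (59.2) was below the other controls (68.5 to 68.8). The ratio of summed cytosolic to summed mitochondrial levels per kb was 5.15 in Dnm2 +/K562E mouse 1 against 4.47 to 4.56 in the other mutants. The genotypes did not overlap for Gars, Hars, Iars, Dnm2 or the ratio, and overlapped for Sars. The causes were not tested.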

How the results depend on the processing

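Scaling by library size alone, which raised the median of all genes from 0.01 to 0.22 by construction, was the alternative that moved the summary values. With it 11 cytosolic members rose and 0 fell, 2 mitochondrial members rose and 4 fell, 1 member passed both thresholds upwards (Kars) and 1 downwards (Aars2), and the median log2 fold changes were 0.23 (cytosolic) and -0.12 (mitochondrial). Dnm2 then passed at 0.36. Counts of the enzyme classes, the multisynthetase complex and the companion lists moved likewise, from 18 higher and 30 lower companion genes to 40 and 13. Members that changed sign with it were Cars (0.16), Dars (0.21), Iars (0.10), Mars2 (0.0762), Pars2 (0.19) and Rars2 (0.14), and 12 of the 23 called members lost the call in the same direction. Dars, at -0.01, also turned to 0.00514 when at least 10 counts in every mouse were required. The edgeR exact test, DESeq2, median-ratio factors, leaving out mitochondrially encoded genes, no filter and the filter of 10 counts left all 23 calls in place. With the replicate block 20 (title numbers) and 22 (description numbers) of the 23 calls remained, Hars, Lars and Wars being lost with the first and Hars with the second (log2 fold change 0.20 for Hars with either block, adjusted p = 0.0505 and 0.0664, edgeR quasi-likelihood test).

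With 1 mouse left out at a time, 5 to 7 cytosolic members rose and 6 to 7 fell, 7 to 10 mitochondrial members fell and 0 rose, and 3 to 4 members passed both thresholds, all downwards. The mitochondrial median ran from -0.38 to -0.30 and the cytosolic median from -0.00917 to 0.0408, turning negative without control mouse 4 or Dnm2 +/K562E mouse 4. The log2 fold changes of Dars (-0.0474 to 0.0429), Iars2 (-0.0069 to 0.042), Nars2 (-0.0591 to 0.0924) and Pars2 (-0.141 to 0.0827), none of them called, crossed 0. Of the 23 called members 18 kept the call without any single mouse, and the exceptions were Hars, Lars, Wars, Tars2 and Vars2. The companion genes gave 14 to 19 higher and 25 to 36 lower. The mix of fibre and other cells was not corrected.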
